A study of Homo sapiens with 6 samples.

Results

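The genes of the cohesin ring, of the establishment of sister chromatid cohesion and of its release by separase were examined in STIL-knockdown bladder cancer cells. There were 10 such genes among the 15953 genes measured, chosen by gene symbol: the ring subunits SMC1A, SMC3, RAD21, STAG1 and STAG2, the establishment factors ESCO1, ESCO2 and CDCA5, and securin (PTTG1) with separase (ESPL1). The RNA came from EJ, an established line of human bladder cancer, with 3 libraries in each of 2 groups. One group carried a stable lentiviral knockdown of STIL (shSTIL), a centriole protein needed for centriole duplication, and the other group the stable negative control virus (shNC). Both groups were the same line with no other treatment named, and whether the stable cells are a pool or 1 clone is not given in the sources used here. The labels number the replicates but do not say that they were separate cultures, so P-values measure the spread between these libraries, which may be technical.

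Cohesin is a ring that holds sister chromatids together from DNA replication to anaphase. The long ATPases SMC1A and SMC3 form its arms, the kleisin RAD21 closes it, and either STAG1 or STAG2 binds the kleisin. STAG2 is often inactivated in bladder cancer. The acetyltransferases ESCO1 and ESCO2 modify SMC3, and sororin, the product of CDCA5, then protects the closed ring from being opened by WAPL. ESCO2 acts mainly in S phase at the replication fork, whereas ESCO1 also acts outside S phase. At anaphase securin is destroyed, and the separase it had inhibited cuts RAD21.

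The targeted gene STIL was examined first. Its deposited log2 CPM (read counts scaled by the reads of the library, on the log2 scale) stood at 5.98, 6.10 and 6.01 in shNC and 4.05, 4.06 and 4.01 in shSTIL, so the libraries matched their labels, and 25.2% of the control level was left. Depth was even, with 16214777 to 16431245 reads a library in shNC and 16734482 to 16901638 in shSTIL. Of the 14 urothelial markers 12 were measured: KRT18 was at a log2 CPM of 9.32 ± 0.05 in shNC and 9.27 ± 0.03 in shSTIL (SD, n = 3), whereas KRT5 and KRT20 had 0 to 1 reads in every library. Of these 12 markers 5 passed the limma test described for the cohesin genes, which 47.1% of all genes passed. KRT7 (log2 fold change 0.49) and PPARG (0.26) were higher and KRT8 (-0.70), FOXA1 (-0.53) and UPK1B (-1.12) lower in shSTIL. When any 1 library was left out, 2 to 3 of the 12 markers passed. The summed CPM of these 12 markers was 1105 to 1164 in shNC and 999 to 1033 in shSTIL. The 3 endothelial markers together reached 0.943 to 1.34 CPM over all libraries, and the 2 fibroblast and 2 immune markers measured reached 2.18 to 4.36 and 11.2 to 15.1 CPM. Of these 7 markers of other cell types, COL1A1 passed as lower (-0.96), a call lost when any library but shNC replicate 2 was left out.

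Of the 10 genes, 8 changed in STIL-knockdown cells at a limma adjusted P-value under 0.01, of which 3 were higher and 5 lower. ESCO2, PTTG1, ESPL1, SMC1A and SMC3 fell, and ESCO1, STAG1 and STAG2 rose. RAD21 and CDCA5 did not pass the test. Over all genes 47.1% passed it, 23.5% as higher and 23.6% as lower, so a call by itself was common in this experiment. Without any overlap between the shNC and shSTIL libraries were 9 of the 10 genes, against 60.3% of all genes. The median log2 fold change (shSTIL minus shNC) was -0.23 over the 10 genes and 0.01 over all genes, and the median size regardless of sign was 0.33 and 0.30. In bulk RNA fewer cells in a cell cycle phase and less RNA per cell cannot be told apart.

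**Figure D1:**
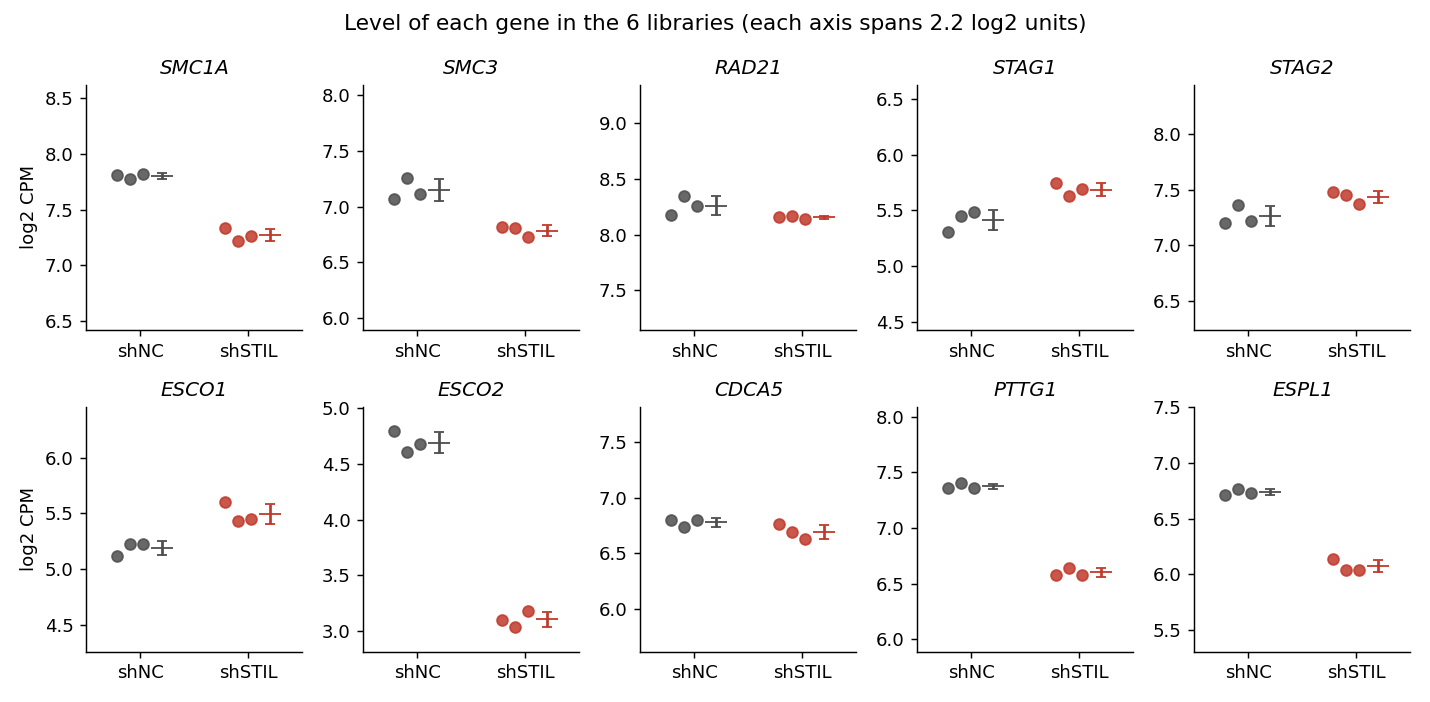
Log2 CPM of the 10 genes in the 3 shNC (grey) and 3 shSTIL (red) libraries, 1 point a library, with the mean and SD beside the points. ESCO2 shows the widest gap between the groups, the values of 9 genes do not overlap between them, and CDCA5 is the gene whose groups overlap.

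Within the ring, the SMC arms fell. SMC1A (GRCh38 chromosome X, 53374149 to 53422728, minus strand) had 7.81, 7.78 and 7.82 log2 CPM in shNC and 7.33, 7.22 and 7.26 in shSTIL. Every shSTIL library was below every shNC library, and the gap was several times the spread within a group. SMC1A thus had a log2 fold change of -0.53 (SE 0.04, limma adjusted p = 2.7e-08), which left 69.2% of the control level. SMC3, the arm that is acetylated (chromosome 10, 110567691 to 110604636, plus strand), had a log2 CPM of 7.07, 7.26 and 7.11 in shNC and 6.82, 6.81 and 6.72 in shSTIL. The groups were again apart, and shNC replicate 2 was the highest library. The log2 fold change of SMC3 was -0.36 (SE 0.05, limma adjusted p = 2.1e-05), with 77.8% of the control level left. The call of SMC3 was lost when shSTIL replicate 1, 2 or 3 was left out, with limma adjusted p = 0.0105, 0.0113 and 0.0144.

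RAD21, the kleisin that separase cuts, had the highest level of the ring subunits per length of transcript. Its gene (chromosome 8, 116845935 to 116874866, minus strand) had 8.18, 8.34 and 8.25 log2 CPM in shNC and 8.16, 8.17 and 8.14 in shSTIL. The groups did not overlap, but the lowest shNC library and the highest shSTIL library were nearly level. RAD21 had a log2 fold change of -0.10 (SE 0.04, 95% confidence interval -0.19 to -0.02), and limma adjusted p = 0.037 missed the threshold of 0.01. Without shNC replicate 2, the highest of the shNC libraries for RAD21 as for SMC3 and STAG2, the log2 fold change of RAD21 was -0.06. RAD21 shares 518 exonic bases with UTP23 on the opposite strand, and the strand setting of the libraries is not given in the sources used here. Reads from these bases may belong to either gene, which was not tested. The estimated counts of RAD21 were whole numbers in the 4 libraries with a deposited count, so the authors' counting split none of its reads.

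The STAG subunits rose. STAG1 (chromosome 3, 136336233 to 136752403, minus strand) had a log2 CPM of 5.31, 5.45 and 5.49 in shNC and 5.74, 5.63 and 5.69 in shSTIL. All shSTIL libraries were above all shNC libraries, by the least for shNC replicate 3 and shSTIL replicate 2. The rise of STAG1 was 0.27 on the log2 scale (SE 0.05, limma adjusted p = 6.7e-04), or 121% of the control level. STAG1 shares 1664 exonic bases with PCCB on the opposite strand, a gene at a mean log2 CPM of 5.91. The estimated counts of STAG1 were whole numbers in the 4 libraries with a deposited count, so the authors' counting split none of its reads. Which of the 2 genes the reads from these bases came from was not tested. STAG2 (chromosome X, 123960212 to 124422664, plus strand) had 7.20, 7.36 and 7.22 log2 CPM in shNC and 7.48, 7.45 and 7.37 in shSTIL. The groups were barely separated, since shNC replicate 2 nearly reached shSTIL replicate 3. The rise of STAG2 was 0.17 on the log2 scale (SE 0.04, limma adjusted p = 0.0049), or 113% of the control level.

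The rises of the STAG subunits were close to the limit of the test. Leaving out any 1 of the 6 libraries put STAG1 at limma adjusted p = 0.011 to 0.035. STAG2 lost its call without shNC replicate 1 or 3 or shSTIL replicate 1, 2 or 3, at 0.044 to 0.11 by the same limma adjusted p, and kept it without shNC replicate 2 at 0.0069.

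Among the establishment factors, ESCO2 fell by the most of the 10 genes and ESCO1 rose. ESCO2 (chromosome 8, 27771949 to 27812640, plus strand) had a log2 CPM of 4.79, 4.60 and 4.68 in shNC and 3.10, 3.03 and 3.18 in shSTIL, from 395 to 442 reads a library in shNC and 139 to 151 in shSTIL. The groups were far apart, and no library stood away from its group. With a log2 fold change of -1.59 (SE 0.08, limma adjusted p = 2.2e-09), ESCO2 kept 33.3% of its control level. Only 0.683% of all genes had a lower log2 fold change. In the 4 libraries with a deposited count, the estimated counts of ESCO2 were fractional and those of the other 9 genes were whole numbers, so some reads of ESCO2 had been shared with another sequence by the authors' counting.

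ESCO1, the acetyltransferase that also acts outside S phase (chromosome 18, 21529281 to 21600884, minus strand), had 5.11, 5.23 and 5.22 log2 CPM in shNC and 5.60, 5.43 and 5.45 in shSTIL. Every shSTIL library was higher than every shNC library, with shSTIL replicate 1 the highest. Its rise was 0.31 on the log2 scale (SE 0.06, limma adjusted p = 4.0e-04), or 124% of the control level. Leaving out any 1 of the 6 libraries put ESCO1 at limma adjusted p = 0.011 to 0.020.

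CDCA5, which encodes sororin (chromosome 11, 65066300 to 65084164, minus strand), had a log2 CPM of 6.80, 6.73 and 6.80 in shNC and 6.76, 6.69 and 6.63 in shSTIL. The groups overlapped, since shSTIL replicate 1 was above shNC replicate 2. Its log2 fold change was -0.08 (SE 0.04, 95% confidence interval -0.17 to 0.003, limma adjusted p = 0.096), so a fall of more than 0.17 on the log2 scale lay outside the interval.

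Securin and separase fell together. PTTG1, which encodes securin (chromosome 5, 160421822 to 160428744, plus strand), had 7.36, 7.40 and 7.36 log2 CPM in shNC and 6.58, 6.64 and 6.58 in shSTIL. The groups were far apart beside the narrow spread within each. The fall of PTTG1 had a log2 fold change of -0.77 (SE 0.03, limma adjusted p = 5.6e-10), with 58.5% of the control level left. Its near-identical copy PTTG2 had 1 to 3 reads in every library. The copy PTTG3P was not among the genes measured, so reads that belong to PTTG3P could have been counted for PTTG1, which was not tested. The estimated counts of PTTG1 were whole numbers in the 4 libraries with a deposited count.

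ESPL1, which encodes separase (chromosome 12, 53268299 to 53293643, plus strand), had a log2 CPM of 6.71, 6.77 and 6.73 in shNC and 6.14, 6.04 and 6.04 in shSTIL. The groups did not overlap, and shSTIL replicate 1 was the highest of its group. That of ESPL1 was -0.66 (SE 0.04, limma adjusted p = 9.4e-09), with 63.1% of the control level left. The falls of ESCO2, PTTG1, ESPL1 and SMC1A were the 4 changes that also passed a test against a 1.2-fold change.

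**Figure D2:**
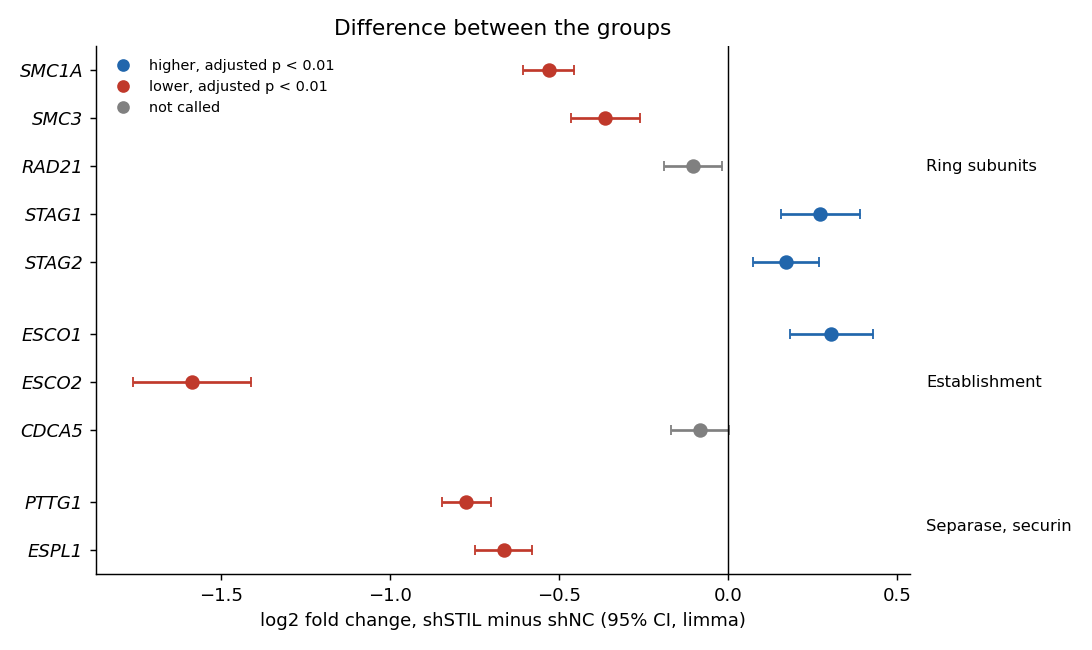
Log2 fold change (shSTIL minus shNC) of the 10 genes by role, with 95% confidence intervals from limma, blue for higher, red for lower and grey for not called. The SMC arms, ESCO2, securin and separase lie left of 0, STAG1, STAG2 and ESCO1 right of it, and the intervals of RAD21 and CDCA5 end at or near 0.

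Ratios within a library, in which the scaling of that library cancels, were compared for 5 pairs. The log2 ratio of ESCO2 to ESCO1 was -0.32, -0.62 and -0.55 in shNC and -2.50, -2.39 and -2.28 in shSTIL. It therefore moved from near parity to a clear excess of ESCO1 reads in each shSTIL library, a fall of 1.89 in the log2 ratio, or 3.72-fold. An exact permutation test over the 20 labellings, two-sided, had p = 0.1, which is the lowest value of this design, and 0.25 after Benjamini-Hochberg adjustment over the 5 pairs, so no pair could pass 0.05. Per length of transcript, ESCO2 made up 45.0% ± 2.7 of the sum of both acetyltransferases in shNC and 17.9% ± 1.2 in shSTIL (SD, n = 3).

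For the STAG pair no difference beyond the spread was detected. The log2 ratio of STAG2 to STAG1 was 1.89, 1.92 and 1.73 in shNC and 1.74, 1.82 and 1.68 in shSTIL. The groups overlapped, and their difference of -0.10 was within the spread (exact permutation p = 0.3, adjusted 0.38 over the 5 pairs). Per length of transcript, STAG2 made up 78.3% ± 1.2 of both STAG subunits in shNC and 77.1% ± 0.9 in shSTIL (SD, n = 3).

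The log2 ratio of SMC3 to SMC1A was -0.74, -0.52 and -0.71 in shNC and -0.51, -0.41 and -0.54 in shSTIL. SMC1A had fallen by more than SMC3, but shNC replicate 2 lay inside the shSTIL range, and the difference of 0.17 did not pass (exact permutation p = 0.2, adjusted 0.33 over the 5 pairs). The log2 ratio of PTTG1 to ESPL1 was 0.65, 0.63 and 0.63 in shNC and 0.44, 0.60 and 0.54 in shSTIL. Securin had thus fallen slightly more than separase in all shSTIL libraries, by 0.11 on the log2 scale (exact permutation p = 0.1, adjusted 0.25 over the 5 pairs). The log2 ratio of CDCA5 to RAD21 was -1.38, -1.61 and -1.45 in shNC and -1.40, -1.48 and -1.51 in shSTIL, and the groups overlapped (difference 0.02, exact permutation p = 0.9, adjusted 0.9 over the 5 pairs).

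**Figure D3:**
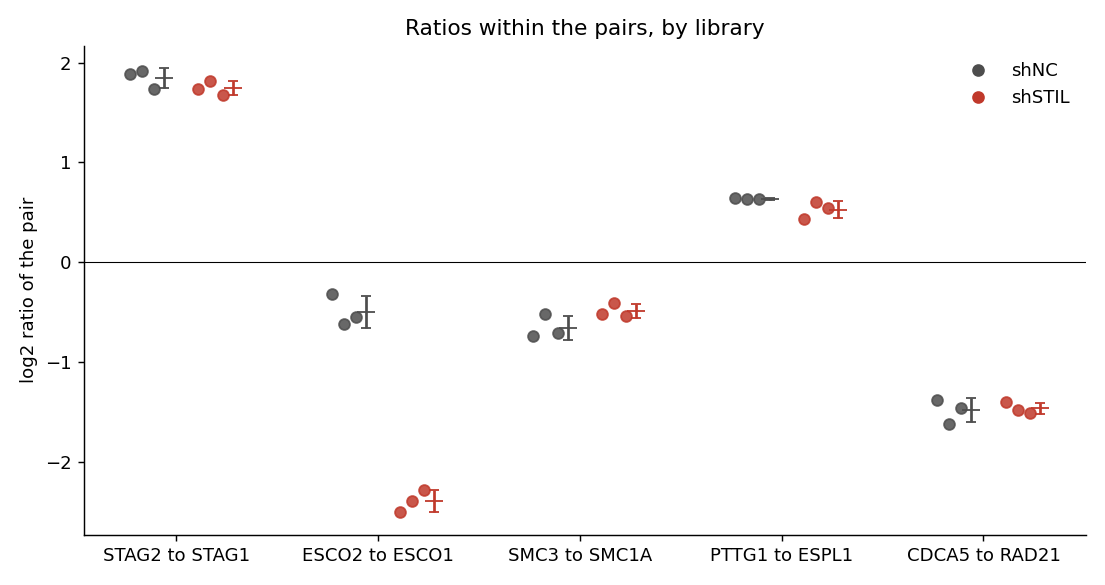
Log2 ratio of 5 pairs of genes in each shNC (grey) and shSTIL (red) library, with the mean and SD beside the points. The ratio of ESCO2 to ESCO1 fell from -0.50 ± 0.16 to -2.39 ± 0.11, whereas the other 4 ratios moved by 0.02 to 0.17.

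Levels of different genes were compared as CPM per kilobase of the principal GENCODE transcript, since longer transcripts give more reads. In shNC, securin was highest at 155 ± 2.6, followed by RAD21 at 81.7 ± 4.8 and CDCA5 at 42.3 ± 1.1 (SD, n = 3). SMC3 (34.5 ± 2.4), STAG2 (25.4 ± 1.6), SMC1A (22.8 ± 0.4) and ESPL1 (16.1 ± 0.3) came next. ESCO1 (8.03 ± 0.35), STAG1 (7.03 ± 0.45) and ESCO2 (6.56 ± 0.43) were lowest, and STAG1 and ESCO2 were the only neighbours in this order whose libraries overlapped.

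In shSTIL the order of these levels was the same but for STAG2 and SMC3. Securin was still first at 90.6 ± 2.4, with RAD21 at 76.0 ± 0.6 and CDCA5 at 40.0 ± 1.8 after it (SD, n = 3). STAG2 (28.6 ± 1.1) stood above SMC3 (26.8 ± 1.0), but the libraries of these neighbours overlapped. SMC1A (15.8 ± 0.6) came next, then ESPL1 (10.1 ± 0.4) and ESCO1 (9.94 ± 0.66), which overlapped each other. STAG1 (8.49 ± 0.34) followed, and ESCO2 was last at 2.16 ± 0.11. The excess of securin over separase, its target, was therefore kept in both groups on this scale, as was that of RAD21 over SMC1A and SMC3.

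The other genes of the cohesin cycle were taken from lists by role. Of 38 such genes measured, 29 (76.3%) passed the test, 9 as higher and 20 as lower, with a median log2 fold change of -0.24. Over all genes 47.1% passed it, 23.5% as higher and 23.6% as lower, so the share of rises was near that of all genes. The direction differed between roles. Of the cohesin loader, both genes rose: NIPBL, which loads the ring on DNA, by 0.43 on the log2 scale (SE 0.04, limma adjusted p = 1.7e-06) and its partner MAU2 by 0.23 (SE 0.04, limma adjusted p = 3.9e-04). Without shSTIL replicate 3, MAU2 was at limma adjusted p = 0.0105. Of the 4 release and deacetylation genes, PDS5A (log2 fold change 0.42, SE 0.04) and WAPL, which opens the ring (0.21, SE 0.04), rose. PDS5B, the paralog of PDS5A, fell (-0.45, SE 0.05). HDAC8, which removes the acetyl groups from SMC3, had a log2 fold change of 0.13 and limma adjusted p = 0.082.

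All 8 genes that act with cohesion at the replication fork fell, with a median log2 fold change of -0.67. Of these 8, 6 to 7 passed when any 1 library was left out, and 6 passed against a 1.2-fold change. CLSPN, a checkpoint mediator that travels with the fork, had a log2 CPM of 5.43 ± 0.06 in shNC and 3.97 ± 0.12 in shSTIL (SD, n = 3; log2 fold change -1.46, SE 0.07, limma adjusted p = 1.2e-09). WDHD1, which links the helicase to DNA polymerase alpha, was at 6.22 ± 0.04 in shNC and 5.38 ± 0.07 in shSTIL (SD, n = 3; log2 fold change -0.84, SE 0.05, limma adjusted p = 5.4e-09). After the fall of ESCO2, which acts at the same place, that of CLSPN was the closest in size among the cohesin genes described here.

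Of 12 genes that protect cohesin at the centromere or remove it from the arms in mitosis, 7 fell and 4 rose. These counts were 4 to 5 and 2 without shNC replicate 3 or without shSTIL replicate 1, 2 or 3. HASPIN, a histone H3 kinase that marks the centromere, fell by 0.84 on the log2 scale (SE 0.09, limma adjusted p = 2.7e-06), and PPP2R1A, the scaffold of protein phosphatase PP2A, fell by 0.65 (SE 0.03, limma adjusted p = 1.6e-09). The 4 that rose were regulatory B56 subunits of PP2A, led by PPP2R5B (log2 fold change 0.66, SE 0.07) and PPP2R5E (0.25, SE 0.04), whereas PPP2R5D, the other B56 subunit, fell (-0.34, SE 0.03, limma adjusted p = 6.0e-07). All 4 genes of anaphase control fell, among them CCNB1, which encodes cyclin B1 (-0.64, SE 0.03), and CDC20, the activator of the ubiquitin ligase that destroys securin (-0.63, SE 0.04). Of these 4, 3 passed without shSTIL replicate 1, 2 or 3, and 3 passed against a 1.2-fold change. Of the 3 factors that bind with cohesin at chromatin loops, YY1 rose (0.35, SE 0.03), and 2, CTCF among them, did not pass. Of the 4 meiotic subunits 0 passed in limma, edgeR or DESeq2, and 1 had an unadjusted limma p under 0.05.

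**Figure D4:**
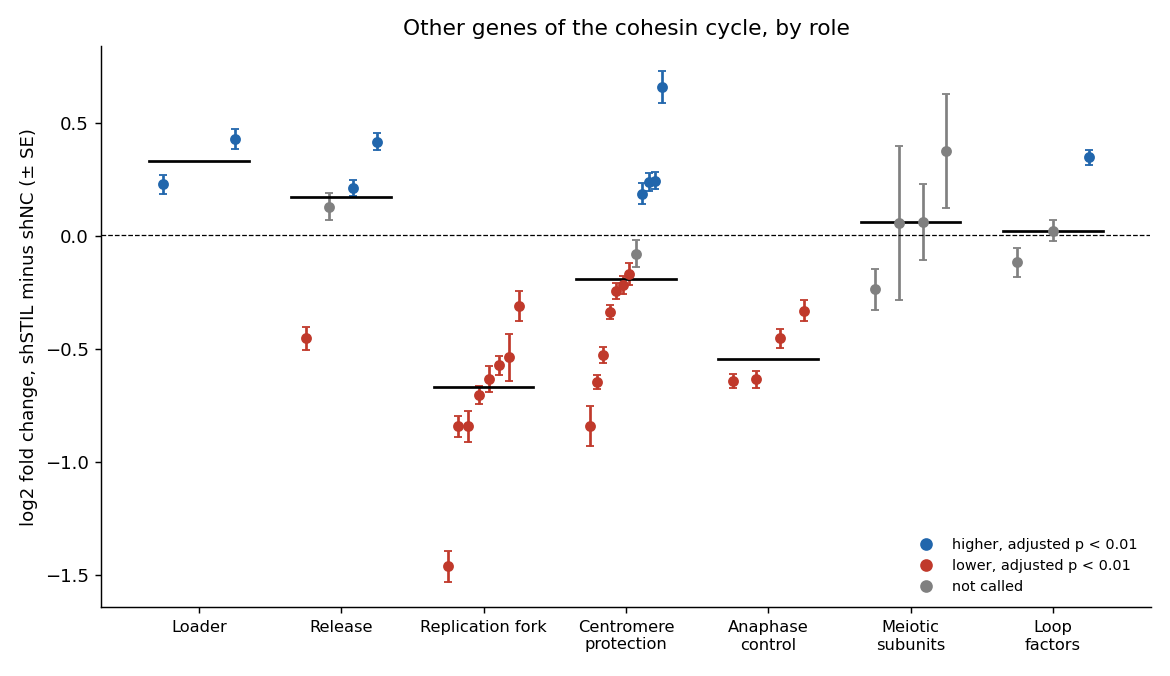
Log2 fold change (shSTIL minus shNC, ± SE) of 37 other genes of the cohesin cycle by role, blue for higher, red for lower and grey for not called. Black bars are the medians of the lists and the dashed line is the median of all genes, 0.01. All fork and anaphase genes lie below 0 and both loader genes above it.

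Genes of the cell cycle phases moved with these changes. Of 43 S phase genes, 42 fell, with a median log2 fold change of -0.97, and their summed CPM was 4446 to 4475 in shNC and 2059 to 2098 in shSTIL. Of 54 G2/M genes, 39 fell and 3 rose, with a median of -0.34. Their summed CPM was 9764 to 9969 in shNC and 7222 to 7332 in shSTIL. Among all genes, 23.6% passed as lower and 23.5% as higher. The log2 fold changes ranged from -2.80 to -0.15 over the S phase genes, 6 of which were lower than ESCO2. They ranged from -1.28 to 0.58 over the G2/M genes, of which 7 were lower than PTTG1, 12 lower than ESPL1 and 11 higher than CDCA5. ESCO2 was lower than all 54 G2/M genes, and CDCA5 was higher than all 43 S phase genes. These ranges are wide, so a place within one of them says little about a single gene. Some fork, centromere, anaphase and loop genes are also members of these phase lists. The part of the cell cycle phases in the changes of the 10 genes was not tested.

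Promoters of 7 of the 10 genes were found in the RefSeq windows (GRCh38.p14, the 250 bases before the start). RAD21, ESCO1 and ESCO2 had no window there and were not searched. The windows found were searched on both strands for the words of elements known from cell cycle genes: the CHR element (TTTGAA or TTCGAA), the CCAAT box (CCAAT) and E2F sites (TTCCCGC or TTGGCGC). These words were found both in genes that fell and in genes that rose or did not pass. The stretches printed are those of securin and separase, which fell together, of SMC1A, which fell, and of CDCA5, which did not pass the test though it carries words of the same kinds. They are printed 5′ to 3′ on the strand of the gene, with the words found in capitals. A GENCODE transcript starts 124 bases before the RefSeq start of CDCA5 and 74 before that of SMC1A, so only 30 bases are given for these. For PTTG1 a GENCODE transcript starts 33 bases before the RefSeq start used, so the stretch ends 34 bases before that RefSeq start.
PTTG1, chr5:160421735-160421821, plus strand: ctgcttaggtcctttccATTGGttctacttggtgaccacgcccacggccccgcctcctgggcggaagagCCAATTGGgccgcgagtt
ESPL1, chr12:53268179-53268298, plus strand: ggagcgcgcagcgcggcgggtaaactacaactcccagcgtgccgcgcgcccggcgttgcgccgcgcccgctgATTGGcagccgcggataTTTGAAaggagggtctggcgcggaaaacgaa
SMC1A, chrX:53422656-53422685, minus strand: gcactgcggcgtTTCCCGCgcgggctacct
CDCA5, chr11:65084058-65084087, minus strand: cctTTCCCGCagggcgggtaaTTCGAAcgt

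In the ESPL1 window a CCAAT box (read as ATTGG on the strand of the gene) began 48 bases and a CHR word 31 bases before the start. PTTG1 had 3 CCAAT words, 103, 51 and 48 bases before the start of the window shown, of which the last pair overlap, and no CHR or E2F word of these letters. In the other PTTG1 window, whose start is farther downstream, the same words lay at 158, 106 and 103 bases. SMC1A had 1 E2F word 19 bases before its start, and CDCA5 an E2F word at 44 and a CHR word at 26 bases. The other SMC1A window, whose start is farther upstream, held none of the words. SMC3, which fell, had a CHR word at 151 bases. Of the genes that rose, STAG1 had a CCAAT word at 241 and an E2F word at 182 bases. STAG2 had a CCAAT word at 157 bases in 1 of its 3 windows, CCAAT words at 242 and 171 and an E2F word at 50 bases in another, and none in the remaining window. Among all 35116 windows of this length, 13.3% held TTTGAA, 1.19% TTCGAA, 32.0% CCAAT, 5.52% TTCCCGC and 2.56% TTGGCGC. A match is a description of the letters and was not tested as a binding site.

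The genes whose pattern was most like that of ESCO2 over the 6 libraries were KHSRP (Pearson r = 0.9998), HAS3 (0.9997) and ACTG1 (0.9996), out of 9942 other genes whose mean log2 CPM was 3 or more. KHSRP encodes a splicing and mRNA decay factor, HAS3 a hyaluronan synthase and ACTG1 a cytoplasmic actin. Of the 10 genes, SMC1A followed ESCO2 most closely (r = 0.992), but 624 genes outside them had a higher r than SMC1A. The 6 points fall into the 2 groups, so r reflects the difference between the groups and ranks few genes apart.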

How the data were processed

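RNA had been sequenced by the authors on the BGISEQ-500, filtered with SOAPnuke, mapped to a transcriptome with Bowtie2 and counted with RSEM; the submitters' processing notes also name limma and hg38. The authors deposited log2 CPM of 15953 genes for all 6 libraries, computed with edgeR, and estimated counts for 4 libraries. The column headings of the files name siNC and siSTIL, and groups were taken from the sample labels (shNC, shSTIL). Recomputing log2 CPM with TMM and a prior count of 2 matched the deposited values within 3.36e-05. Reads were recovered from the log2 CPM and came out whole within 0.01 reads for 86.7% to 87.7% of the values, since RSEM can assign fractions.

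In limma 3.58.1 under R 4.3.3, lmFit and eBayes with trend were run over the log2 CPM as deposited for every gene, without replicate block, with Benjamini-Hochberg adjustment over all genes and a threshold of 0.01, the one in the study's methods. The design had a test on log2 CPM because count tables were used for only 1 control library. Recovered reads were rounded for the alternatives with edgeR 4.0.16 and DESeq2 1.42.0. Ratios were compared with an exact permutation test (SciPy 1.17.1). Gene positions and transcript lengths are from GENCODE 29 (GRCh38). The genes named are the 10 members, STIL, for each list of the cohesin cycle at most the 2 largest rises and 2 largest falls that passed with a mean log2 CPM not under 1, and the 3 genes most like the member with the largest change; HDAC8, CTCF, PTTG2, PPP2R5D and the cell type markers are named beside this rule, PPP2R5D after its values were seen. The members and lists were chosen with earlier results of these data known. Replicate numbers did not pair the libraries (correlations of the deviations -0.12, -0.06 and -0.11). In simulated libraries 100 genes were changed by 0.5 and 100 by 1 on the log2 scale. The fit over all 15953 genes recovered 35% and 89% of these, with 12 false calls, none where the mean log2 CPM was 1 or more. The fit of the 11357 genes above that level recovered 99% and 100%, with 3 false calls. In the real data 47.1% of all genes passed, a far larger part than was changed in the simulation. The adjusted threshold was therefore stricter in the simulation, and these shares do not measure the recovery of the real fit. The same changed genes were recovered more often once genes of low level were left out, and the main fit of the real data kept such genes.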

Additional observations from a re-analysis of the deposited data

How the results depend on the processing

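All 10 genes kept the direction of their change under every alternative tried. The calls of ESCO2, PTTG1, ESPL1 and SMC1A held under all 17 of them. Against a 1.2-fold change (treat), limma adjusted p was 0.099 for SMC3 (log2 fold change -0.36), 0.84 for STAG1 (0.27), 1 for STAG2 (0.17) and 0.54 for ESCO1 (0.31), which left 4 of the 10 genes called, 0 of them higher, as well as 16 companion genes, 3 higher and 13 lower (1 and 3 in the centromere list), and 3317 of all genes. Without the mean-variance trend the same 3 rises missed the threshold. Their limma adjusted p was 0.016 for STAG1, 0.065 for STAG2 and 0.012 for ESCO1, at unchanged log2 fold changes. This left 5 genes called and 0 higher, beside 5855 of all genes called, and of the centromere list 2 genes were higher and 5 lower. Under a prior count of 0.5 and of 5, the log2 fold change of STAG2 stayed at 0.17 with limma adjusted p = 0.011 and 0.010. With each of these prior counts 7 genes were called, beside 7157 and 7274 of all genes. At an adjusted p under 0.05, RAD21 (-0.10) passed as well, and 8988 of all genes passed. edgeR, DESeq2, quantile normalization, median centring and the filter on mean level gave 8 genes called each. Over all genes they called 7801, 6784, 7337, 7614 and 7448 in that order, the last out of the 11319 genes that the filter kept.

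With 1 library left out, the number of genes called was 4 to 6, of which 0 to 1 were higher. The log2 fold changes ranged from -0.40 to -0.31 for SMC3, from 0.22 to 0.31 for STAG1, from 0.14 to 0.22 for STAG2 and from 0.25 to 0.34 for ESCO1. Fewer libraries leave fewer degrees of freedom, and over all genes 4900 to 5638 were called in these fits. The difference in the log2 ratio of CDCA5 to RAD21 ranged from -0.045 to 0.072, with the sign turned without shNC replicate 2 and without shSTIL replicate 1 (-0.01). With the replicate block the 10 log2 fold changes were the same by construction (ESCO2 at -1.59, the ratio of ESCO2 to ESCO1 at -1.89). In that fit 8 genes were called, and the block changed no call of the 10. Of the 38 companion genes 28 were called, and of all genes 6898. The values of RAD21, CDCA5 and STAG2, of 0.17 or less in size on the log2 scale, lie at the limit of what 3 libraries a group resolve here.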
